A study of Mus musculus with 8 samples.

Results

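The genes of glycolysis and the pentose phosphate pathway were followed in primary murine microglia, the resident macrophages of the brain, after 24 h with LPS or vehicle. The group held 35 genes, taken by name as the transporters, enzymes and direct regulators of these pathways, of 52636 gene identifiers counted, and all 35 were found. The cells were wild-type C57BL/6 microglia (C57BL/6N pups in the methods) shaken off mixed glial cultures of neonatal brain and kept in DMEM with 10% fetal bovine serum and 10 ng/ml recombinant CSF-1, in both groups alike. LPS, a bacterial cell wall component that activates Toll-like receptor 4, was given at 5 µg/ml. There were 4 libraries per group, which the labels call biological replicates without saying whether they came from separate litters or cultures. If they did not, the p-values measure a spread that may be technical. Such cells lack the neurons and blood vessels that surround microglia in the brain, and a culture of this kind may keep a few cells of the astrocyte layer.

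Glycolysis splits glucose into pyruvate in the cytosol and yields ATP without oxygen. Glucose enters through transporters of the GLUT family and is trapped by hexokinases. 6-Phosphofructo-1-kinase then commits it to breakdown, under the control of fructose 2,6-bisphosphate, which is made and removed by the PFKFB enzymes. Pyruvate can be turned into lactate by lactate dehydrogenase and leave through monocarboxylate transporters. The pentose phosphate pathway branches off at glucose 6-phosphate. Its oxidative branch yields NADPH, used by phagocytes for superoxide production and against oxidative damage, and its non-oxidative branch exchanges sugars between ribose 5-phosphate and glycolysis. Macrophages exposed to LPS are known for a shift of their metabolism towards glycolysis. Transcript counts measure neither flux nor protein.

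Library totals ranged from 20071921 to 30604447 counts. CPM is the count scaled to a common library size after TMM scaling, which equalises the bulk of genes between libraries, and a log2 fold change is LPS minus vehicle unless a level is named. The label of the cells was checked with 10 microglial markers, whose summed CPM was 12581 to 15797 in the vehicle libraries and 5066 to 5529 in the LPS libraries, with 8 of 10 lower. Markers of other cell types, lists of 10 genes each, were also counted. Summed CPM with vehicle and with LPS was 18.3 to 44.1 and 39.5 to 120 for astrocytes, 28.9 to 151 and 65.2 to 145 for oligodendrocyte precursors, and 150 to 205 and 188 to 238 for oligodendrocytes. It was 8.15 to 23.8 and 3.12 to 11.5 for neurons, 31.8 to 74.7 and 164 to 255 for endothelial cells, and 5.01 to 8.72 and 9.25 to 27.3 for fibroblasts and pericytes. Single genes carried several of these sums: Gja1 had 28.9 to 98.1 CPM of the astrocyte sum with LPS, and the other 9 astrocyte markers summed to 17.6 to 43.1 with vehicle and 8.63 to 21.9 with LPS. Flt1 and Pecam1 held most of the endothelial sum, and 4 of the 10 endothelial markers had at most 3 counts in any library. Gjb6 of the astrocyte list, Slc17a6 of the neuronal list and Cldn5 of the endothelial list were at 0 counts in every library. In bulk RNA, fewer cells of a type and less RNA per cell cannot be told apart.

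Glycolytic genes were mostly higher with LPS. Of the 35 genes 33 passed the filter on low counts, and of these 20 were higher and 8 lower at an adjusted p under 0.05 (edgeR), while Slc2a6, Aldoc, Bpgm, Eno2 and Rpia were not called. LPS changed much of the transcriptome: 64.1% of the 13847 tested genes were called, 30.3% higher and 33.8% lower. Against that background 60.6% of the tested members were higher and 24.2% lower. The members were chosen with earlier results of these data known, so these shares describe the list and do not test the pathway. Of the 45 tested pathway genes outside the members, 14 were higher and 20 lower. Their median log2 fold change was 1.49, beside −0.11 for all tested genes, and it ranged from −3.41 for Ldhb to 5.60 for Pfkfb3. With a change of at least 1 on the log2 scale also required, 37.7% of all tested genes were called, 16.1% higher and 21.7% lower, and 18 members were higher and 6 lower. The CPM of the 2 groups did not overlap in 26 of the 33 tested members, beside 60.2% of all tested genes. The rises lay along the glucose to lactate route, with a higher transcript at every step that could be tested, and the pentose phosphate enzymes were divided.

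**Figure D1:**
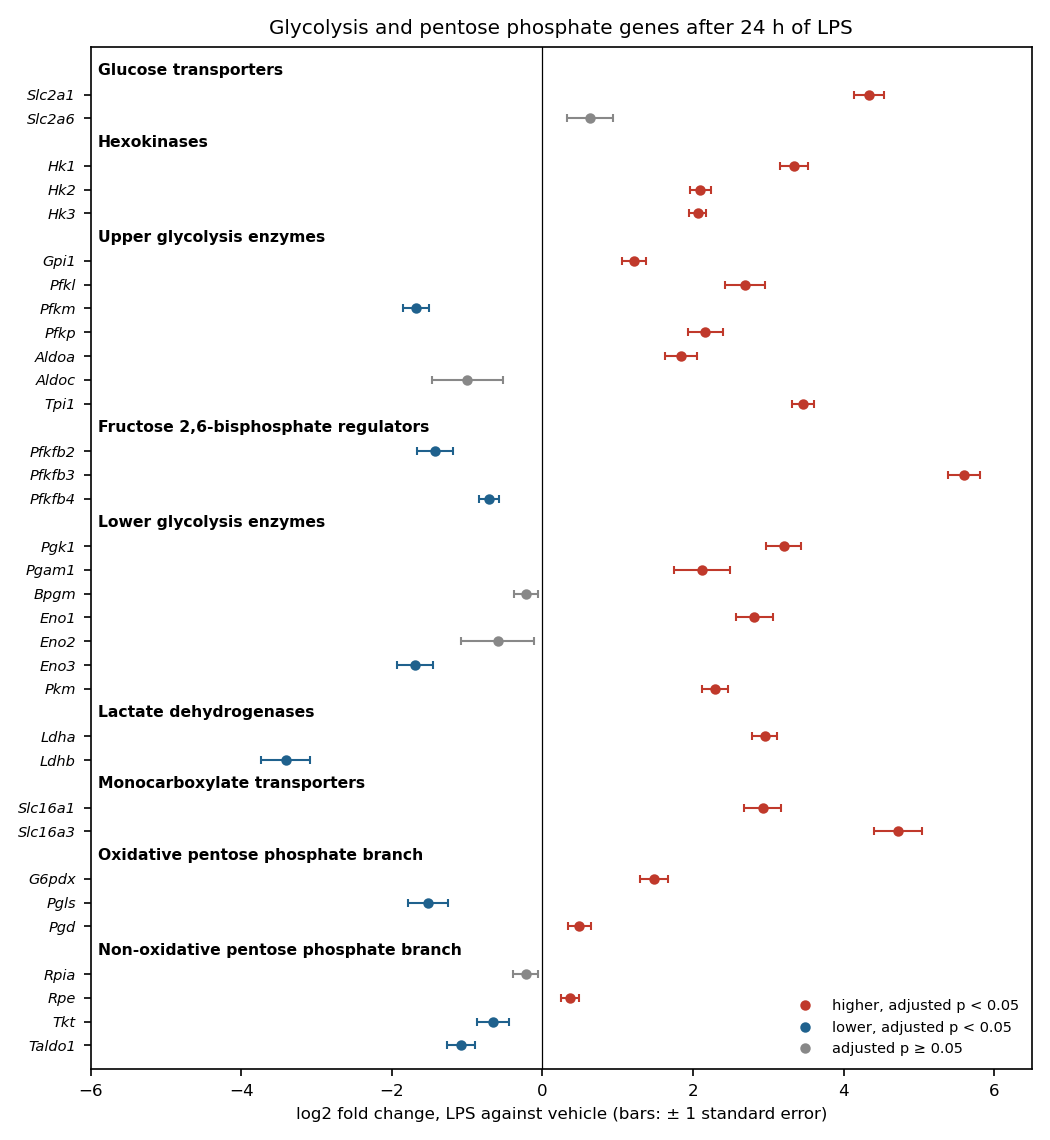
Log2 fold change of the 33 tested genes, LPS against vehicle (x axis), grouped by role. Points are edgeR estimates from 4 libraries per group, bars are 1 standard error, and colour gives the call at an adjusted p of 0.05. Both monocarboxylate transporters and all 3 hexokinases lie to the right of 0, and the phosphofructokinases, PFKFB enzymes, enolases and lactate dehydrogenases each have called members on both sides.

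The bases just upstream of the annotated starts of 4 genes are shown because these genes held the largest rises (Pfkfb3, Slc16a3, Slc2a1) and the largest fall (Ldhb), a choice made after their values were seen. Each run has 250 bases, 5′ to 3′ on the gene's strand, from RefSeq on GRCm38.p6. Capitals mark the hypoxia response cores ACGTG and GCGTG, the letters bound by HIF-1, on either strand. Pfkfb3 has 2 windows, for 2 annotated starts.
Pfkfb3, chr2:11553930-11554179, minus strand: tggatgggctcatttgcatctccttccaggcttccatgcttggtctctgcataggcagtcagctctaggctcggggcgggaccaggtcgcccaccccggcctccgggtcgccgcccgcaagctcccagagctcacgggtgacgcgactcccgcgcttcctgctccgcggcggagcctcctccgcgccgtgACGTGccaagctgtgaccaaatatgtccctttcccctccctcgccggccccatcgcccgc
Pfkfb3, chr2:11502091-11502340, minus strand: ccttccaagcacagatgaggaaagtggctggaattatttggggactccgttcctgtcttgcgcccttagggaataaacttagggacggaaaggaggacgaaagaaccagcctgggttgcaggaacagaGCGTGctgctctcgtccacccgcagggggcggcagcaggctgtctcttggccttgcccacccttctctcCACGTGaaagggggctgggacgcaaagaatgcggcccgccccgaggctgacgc
Slc16a3, chr11:120948817-120949066, plus strand: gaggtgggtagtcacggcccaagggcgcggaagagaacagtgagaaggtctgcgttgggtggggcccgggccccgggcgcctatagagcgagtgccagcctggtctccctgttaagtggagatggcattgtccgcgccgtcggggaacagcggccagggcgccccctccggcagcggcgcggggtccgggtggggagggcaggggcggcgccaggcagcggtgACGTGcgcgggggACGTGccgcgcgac
Slc2a1, chr4:119108495-119108744, plus strand: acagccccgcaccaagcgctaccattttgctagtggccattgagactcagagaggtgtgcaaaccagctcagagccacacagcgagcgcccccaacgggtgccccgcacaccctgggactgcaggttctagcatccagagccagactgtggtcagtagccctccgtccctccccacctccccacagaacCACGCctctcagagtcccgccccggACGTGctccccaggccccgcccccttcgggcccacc
Ldhb, chr6:142507958-142508207, minus strand: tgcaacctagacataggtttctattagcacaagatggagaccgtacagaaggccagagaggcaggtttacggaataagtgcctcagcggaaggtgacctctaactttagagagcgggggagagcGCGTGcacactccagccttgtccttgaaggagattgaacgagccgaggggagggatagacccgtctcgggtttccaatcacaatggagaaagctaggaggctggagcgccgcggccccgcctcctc
The first Pfkfb3 window held 1 core and the second 3, of which 2 overlap as the strands of an E-box, CACGTG. Slc16a3 and Slc2a1 held 2 cores each, and Ldhb, which fell, held 1. Over the 50 upstream windows of the 35 members, ACGTG stood in 34% and GCGTG in 56%, beside 16.6% and 28.2% of all 32851 RefSeq windows of the same length. ACGTG was found for 11 of the 20 higher members and 2 of the 8 lower ones, and GCGTG for 11 of 20 and 8 of 8. These are counts of genes, met by any window of a gene, and such counts over all genes were not made. For 43 of the 50 member windows the bases after the start lay in an annotated transcript of the gene. The E-box CACGTG was in 10% of the member windows and 6.02% of all, and the NF-kappaB consensus in 0 of 50 member windows and 3.90% of all. Base composition was not matched in these shares, and a match of letters is not a binding site.

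Glucose uptake transcripts rose through Slc2a1, which encodes the widely expressed transporter GLUT1. Its CPM was 52.6, 34.5, 37.6 and 34.3 in vehicle libraries 1 to 4 and 984, 726, 768 and 721 in LPS libraries 1 to 4. The lowest LPS library stood far above the highest vehicle library. The fold change was 20.1 (log2 4.33, SE 0.20, adjusted p = 2.58e-07), and 4.22 to 4.40 on the log2 scale between libraries of the same number. Slc2a6 encodes GLUT6, a transporter found mainly on lysosomes. It ran from 26.5 to 71.3 CPM with vehicle and from 53.1 to 104 with LPS, so that the groups overlapped, and it was not called (log2 0.63, SE 0.31, adjusted p = 0.0975). Vehicle replicate 3 held the 71.3 CPM, and without it the log2 fold change was 1.01 (adjusted p = 0.0138). Per kilobase of merged exons, Slc2a1 held 45.9% ± 9.85 (SD, n = 4) of the summed level of these 2 transporters with vehicle and 91.4% ± 1.54 with LPS. GLUT1 is also typical of brain endothelium, whose summed markers had a higher range with LPS, with Cldn5 at 0, and their part in the Slc2a1 values was not tested.

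All 3 hexokinases, which phosphorylate glucose on entry, were higher. Hk1, the isoform common to most tissues and held on mitochondria, had 59.0, 48.9, 53.1 and 46.4 CPM with vehicle and 656, 423, 602 and 418 with LPS. Hk1 rose most of the family (log2 3.34, SE 0.19, adjusted p = 6.81e-07). Hk2, the inducible isoform, went from 70.6 ± 5.98 to 301 ± 51.7 CPM (log2 2.09, SE 0.14) and Hk3, a myeloid isoform, from 241 ± 10.1 to 1006 ± 85.3 (log2 2.06, SE 0.12). No library of either group overlapped the other in these 3 genes. Per kilobase, Hk3 remained the main hexokinase, at 78.5% ± 1.73 of the family level with vehicle and 71.0% ± 4.44 with LPS. The share of Hk1 went from 7.29% ± 0.754 to 16.0% ± 3.72, and that of Hk2 was 14.2% ± 1.05 and 13.0% ± 1.35 (exact permutation test, two-sided, p = 0.286).

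**Figure D2:**
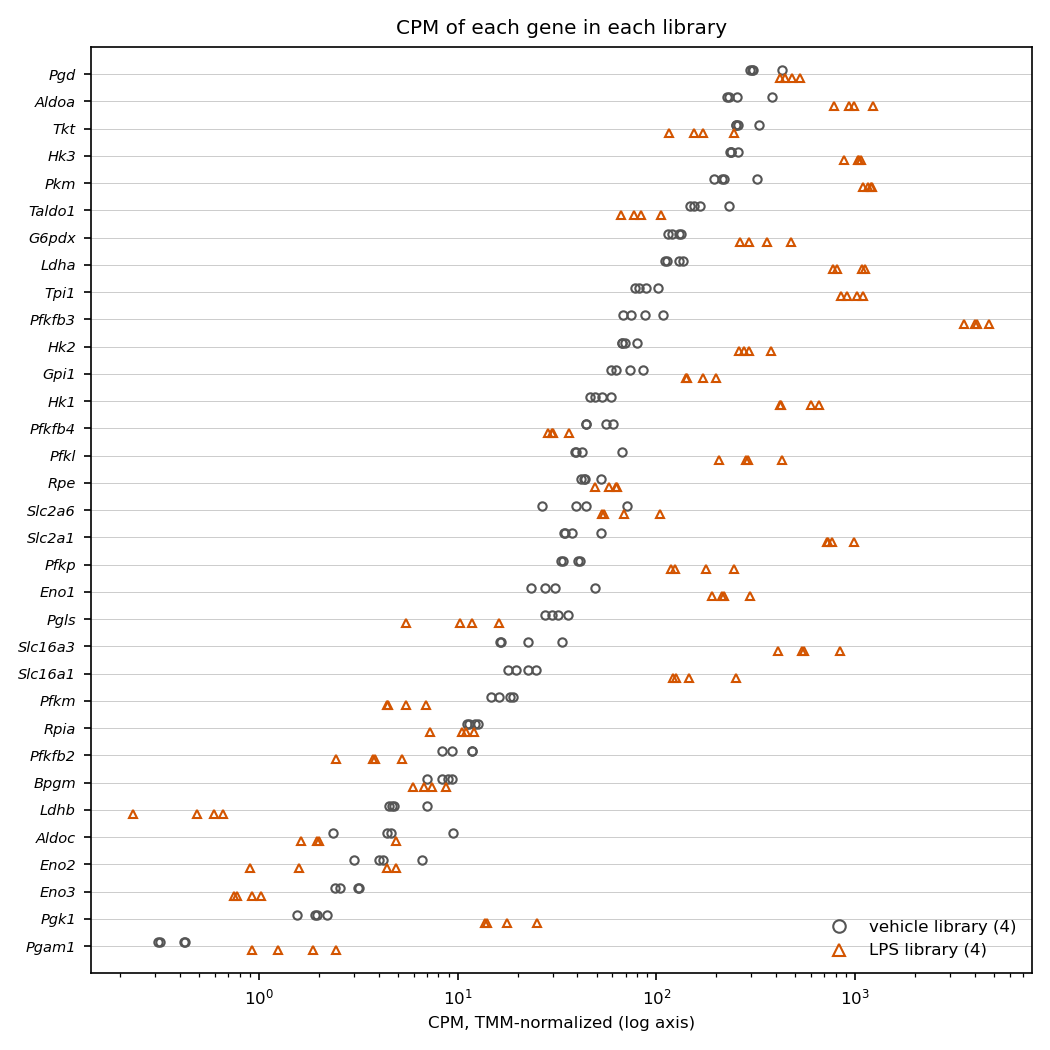
CPM of the 33 tested genes in each of the 8 libraries (x axis, log scale), sorted by the vehicle mean. Circles are the 4 vehicle libraries and triangles the 4 LPS libraries. The circles and triangles of Slc2a1 (34.3 to 52.6 and 721 to 984) lie far apart, and those of Rpia lie on one another.

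In upper glycolysis 5 of 7 genes rose, Pfkm fell and Aldoc was not called. Tpi1, triosephosphate isomerase, which interconverts the 2 triose phosphates, rose most, from 102, 78.2, 88.6 and 82.1 CPM to 1016, 904, 1095 and 850. All its LPS libraries stood above all its vehicle libraries (11.0-fold, log2 3.46, SE 0.15, adjusted p = 1.75e-07). Aldoa, the main aldolase outside liver, went from 274 ± 73.0 to 980 ± 187 CPM (log2 1.84, SE 0.21). Gpi1, which turns glucose 6-phosphate into fructose 6-phosphate, had 58.7 to 85.4 CPM with vehicle and 140 to 200 with LPS (log2 1.22, SE 0.16). Aldoc, the aldolase typical of astrocytes and neurons, had 9.52, 4.39, 2.35 and 4.62 CPM with vehicle and 4.91, 2.01, 1.96 and 1.62 with LPS. LPS replicate 1 lay above 3 of the 4 vehicle libraries, and the groups overlapped (log2 −1.0, SE 0.47, adjusted p = 0.0907). Compared within replicate numbers, Aldoc was lower (adjusted p = 0.0103), and without LPS replicate 1 its log2 fold change was −1.47 (adjusted p = 0.0185). Without vehicle replicate 3 it was −1.17 (adjusted p = 0.0491). The astrocyte markers other than Gja1 summed to 21.9 CPM in LPS replicate 1 and 8.63 to 16.0 in the other LPS libraries. They summed to 17.6 CPM in vehicle replicate 3, the vehicle library lowest in Aldoc, and to 28.8 in vehicle replicate 1, the highest in Aldoc, against 43.1 and 41.9 in replicates 2 and 4. Their part in the Aldoc values was not tested.

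The 3 isoforms of 6-phosphofructo-1-kinase, the committing step, went in opposite directions. Pfkl, the liver type, had 67.0, 39.2, 42.2 and 38.8 CPM with vehicle and 428, 282, 207 and 289 with LPS (log2 2.69, SE 0.26, adjusted p = 1.78e-05). Pfkp, the platelet type, had 33.0, 40.2, 41.2 and 34.0 CPM with vehicle and 178, 118, 245 and 124 with LPS (log2 2.16, SE 0.23, adjusted p = 3.34e-05). Pfkm, the muscle type, had 18.9, 16.1, 14.6 and 18.4 CPM with vehicle and 6.94, 4.47, 5.50 and 4.38 with LPS. Pfkm fell by 1.68 on the log2 scale (SE 0.18, adjusted p = 3.00e-05). The groups did not overlap in any of these genes, and LPS replicate 3 was the lowest LPS library for Pfkl and the highest for Pfkp. Per kilobase, Pfkm made up 34.5% ± 3.93 of the family level with vehicle and 2.71% ± 0.358 with LPS, and Pfkl 46.5% ± 6.08 and 75.6% ± 9.89. The Pfkp share was 19.0% ± 4.07 with vehicle. It was 36.0% in LPS replicate 3 and 16.7% to 17.2% in the other LPS libraries, and did not differ beyond this spread (exact permutation test, p = 0.83). Of the merged exon bases of Pfkm 10.2% overlap Gm26513 on the same strand, and 5.58% of those of Pfkp overlap Pitrm1 on the opposite strand.

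The largest change was in Pfkfb3, a kinase and phosphatase whose kinase activity predominates, so that it makes the activator fructose 2,6-bisphosphate. Its gene lies on chr2:11471433-11554077, minus strand (GRCm38). Pfkfb3 had 87.8, 74.5, 108 and 68.1 CPM with vehicle and 3534, 4096, 4722 and 4008 with LPS. Every LPS library stood more than an order of magnitude above every vehicle library (48.4-fold, log2 5.60, SE 0.22, adjusted p = 1.05e-07). The other PFKFB genes among the members fell. Pfkfb2, the heart type, went from 10.3 ± 1.78 to 3.83 ± 1.15 CPM (log2 −1.43, SE 0.24, adjusted p = 5.03e-04), and Pfkfb4, the testis type, from 51.2 ± 8.30 to 31.3 ± 3.58 (log2 −0.71, SE 0.14, adjusted p = 0.00125). Neither overlapped between groups. Pfkfb1, outside the members, was at 1.39 CPM with vehicle and 1.89 with LPS and not called (log2 0.44, adjusted p = 0.232). It is left out of the shares. Per kilobase, Pfkfb3 and Pfkfb4 held 48.2% ± 2.34 and 45.5% ± 0.777 of the family level with vehicle, and Pfkfb3 held 98.7% ± 0.181 with LPS. Gm29427, which overlaps 17.4% of the merged exon bases of Pfkfb2 on the same strand, had 0 counts in all libraries. Fbp1, the bisphosphatase that runs the phosphofructokinase step backwards in gluconeogenesis, did not pass the filter, with 0 to 2 counts in the vehicle libraries and 4 to 10 in the LPS libraries.

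Lower glycolysis turns triose phosphates into pyruvate, and 4 of its 7 tested genes rose. Pkm, pyruvate kinase of most non-liver tissues, had 320, 214, 219 and 195 CPM with vehicle and 1208, 1156, 1195 and 1098 with LPS (log2 2.30, SE 0.17, adjusted p = 3.53e-06). Its M1 and M2 isoforms share most exons and are not separated in gene counts. Of the merged exon bases of Pkm 15.3% overlap Gm49759 on the same strand, which was itself higher (log2 2.20). Eno1, the common enolase, had 49.1, 23.3, 30.9 and 27.4 CPM with vehicle and 294, 213, 190 and 219 with LPS (log2 2.81, SE 0.25, adjusted p = 9.19e-06). In both genes the groups stood apart. Eno3, the muscle enolase, fell from 2.83 ± 0.399 to 0.869 ± 0.131 CPM (log2 −1.69, SE 0.24, adjusted p = 1.85e-04). Eno2, the neuronal enolase, had 6.58, 4.01, 3.01 and 4.19 CPM with vehicle and 0.898, 4.90, 1.59 and 4.38 with LPS, with overlapping groups (log2 −0.60, SE 0.49, adjusted p = 0.305). Summed neuronal markers were lowest in vehicle replicate 3 (8.15 CPM), the vehicle library lowest in Eno2. With LPS they were highest in replicate 1 (11.5 CPM), the library lowest in Eno2, and lowest in replicate 3 (3.12 CPM). Their part in the Eno2 values was not tested. Bpgm, which makes 2,3-bisphosphoglycerate, was not called (log2 −0.22, SE 0.16, adjusted p = 0.264).

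Pgk1 and Pgam1, which catalyse the steps between glyceraldehyde 3-phosphate dehydrogenase and enolase, rose from very low counts. Pgk1 had 44 to 69 counts in the vehicle libraries and 251 to 537 in the LPS libraries (log2 3.21, SE 0.23, adjusted p = 2.87e-06). Pgam1 had 9 to 12 and 17 to 41 counts (log2 2.12, SE 0.37, adjusted p = 7.33e-04). Gapdh, glyceraldehyde 3-phosphate dehydrogenase and a common reference gene, had 0, 1, 2 and 0 counts with vehicle and 2, 6, 8 and 8 with LPS and did not pass the filter. These levels cannot rank the genes, since only uniquely aligned reads were counted and much of their sequence is shared with copies elsewhere. A 50-base window of the main transcript, the read length in the labels, was found in no other annotated gene for 17.5% of the windows of Gapdh, 27.8% of Eno1, 32.0% of Pgk1 and 58.5% of Pgam1. Gapdh shared at least 1% of its windows with 116 other genes. For 20 of the 35 members at least 98% of windows were unique. The part of shared sequence in the low counts was not tested.

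**Figure D3:**
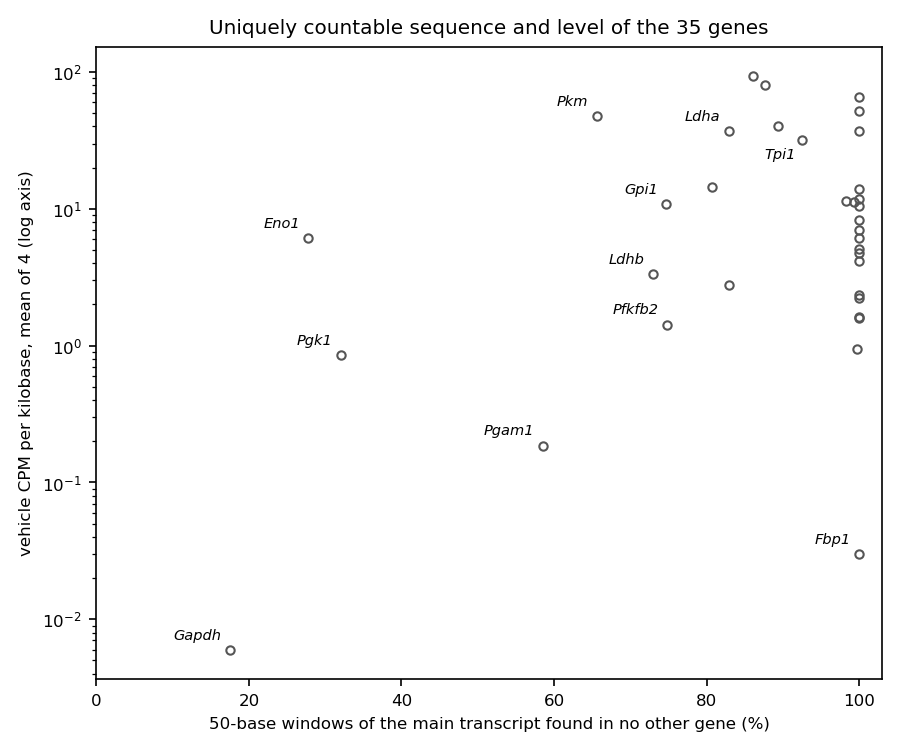
Share of 50-base windows of each member's main transcript found in no other annotated gene (x axis, %) against its mean vehicle CPM per kilobase of merged exons (y axis, log scale, n = 4), for all 35 genes. Gapdh (17.5%), Eno1 (27.8%), Pgk1 (32.0%) and Pgam1 (58.5%) lie at the left, and Fbp1 is low with unique sequence.

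Processed copies of several members were themselves counted, and the 5 with the most counts are given here, chosen after their values were seen. Tpi-rs11 rose by 3.32 on the log2 scale (SE 0.19) beside 3.46 for Tpi1, Gm5452 by 2.94 (SE 0.18) beside 2.95 for Ldha, and Gm6560 by 2.14 (SE 0.16) beside 2.30 for Pkm. Gm1840 rose by 1.22 (SE 0.14) beside 1.22 for Gpi1, and Gm17823 fell by 1.30 (SE 0.19) beside a fall of 1.08 for Taldo1. Reads of a copy and its parent cannot be told apart where the sequence is shared, and whether the copies are transcribed themselves was not tested. Over the vehicle libraries Tpi-rs11 held 1040 counts and Tpi1 10287, Gm5452 572 and Ldha 14355, and Gm6560 2140 and Pkm 27719. Gm1840 held 3919 and Gpi1 8223, and Gm17823 1308 and Taldo1 20496.

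Lactate dehydrogenase, which interconverts pyruvate and lactate, showed opposite changes of its 2 subunits. Ldha, the subunit associated with lactate production, had 136, 113, 130 and 110 CPM with vehicle and 1082, 811, 1120 and 769 with LPS. The groups were far apart (7.73-fold, log2 2.95, SE 0.17, adjusted p = 7.62e-07). Ldhb, the heart subunit, lies on chr6:142490249-142507957, minus strand. It had 6.97, 4.50, 4.66 and 4.79 CPM with vehicle and 0.658, 0.490, 0.233 and 0.595 with LPS, or 130 to 199 and 5 to 11 counts, with no overlap. Ldhb fell by 3.41 on the log2 scale (SE 0.33, adjusted p = 1.67e-05), the largest fall among the members. Of its 50-base windows 73.0% were found in no other gene, and its copy Gm5514 had 46 counts over the vehicle libraries and 4 over the LPS libraries. Per kilobase, Ldhb made up 8.23% ± 1.17 of the family level with vehicle and 0.116% ± 0.0505 with LPS. With LPS 4 of 6 tested neuronal markers and 3 of 8 tested astrocyte markers were also lower, and 1 astrocyte marker, Gja1, was higher. Their part in the Ldhb values was not tested.

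Both proton-linked monocarboxylate transporters among the members rose. Slc16a7 (MCT2), listed outside them, fell from 42.8 ± 11.0 to 2.19 ± 0.702 CPM (log2 −4.28) and is not in the pair below. Slc16a3 encodes MCT4, known for lactate export, and had 33.6, 16.4, 22.5 and 16.3 CPM with vehicle and 841, 543, 409 and 552 with LPS. The lowest LPS library was more than an order of magnitude above the highest vehicle library (26.4-fold, log2 4.72, SE 0.32, adjusted p = 2.05e-06). Slc16a1 encodes MCT1, which carries lactate both ways, and had 19.7, 22.5, 17.9 and 24.7 CPM with vehicle and 251, 126, 146 and 121 with LPS (log2 2.92, SE 0.25, adjusted p = 7.58e-06). Per kilobase, the share of Slc16a3 in the pair was 45.8% ± 11.0 with vehicle and 75.3% ± 4.27 with LPS.

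**Figure D4:**
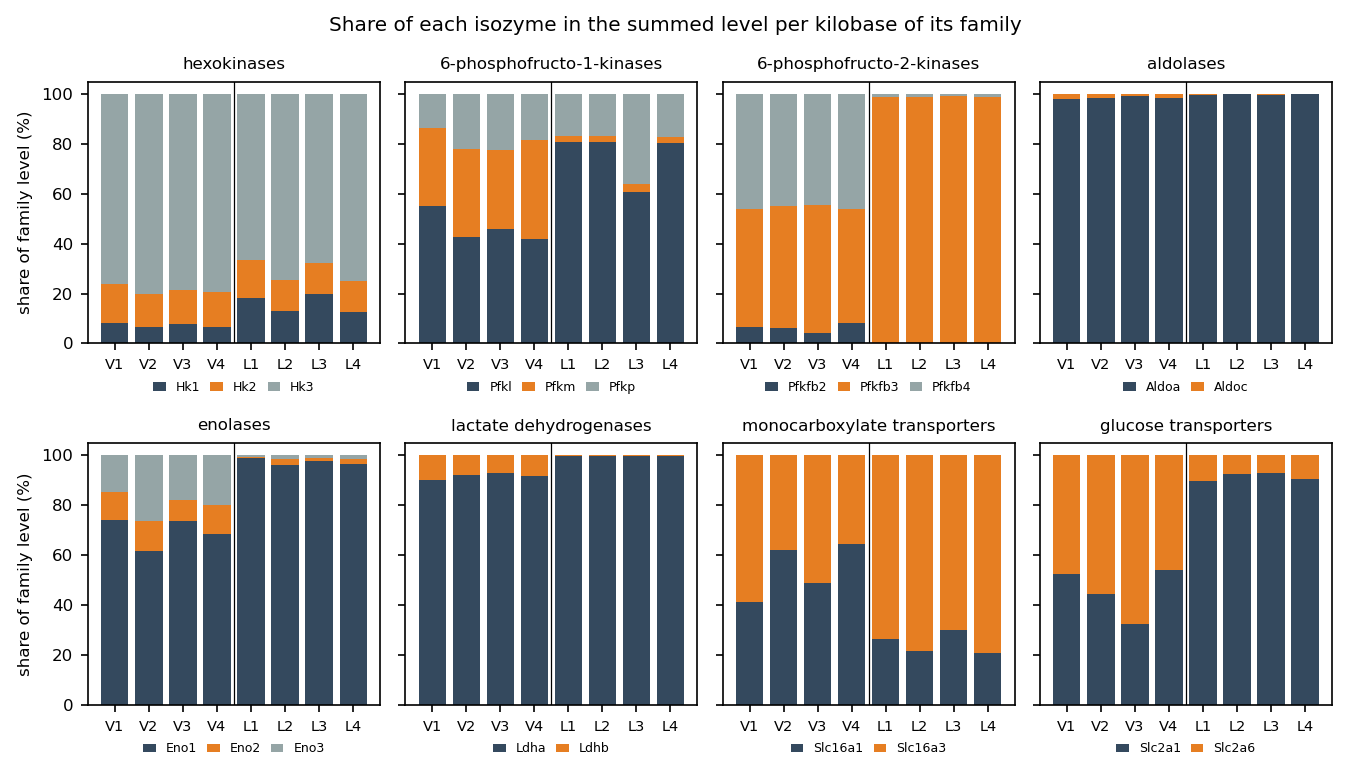
Share of each isozyme in the summed CPM per kilobase of its family (y axis, %), for 8 families in vehicle libraries V1 to V4 and LPS libraries L1 to L4. Pfkfb3 fills 98.5% to 99.0% of its family with LPS against 45.7% to 51.2% with vehicle, and Pfkm shrinks from 31.2% to 39.8% to at most 3.23%.

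Isozyme shares were compared as 16 tests over 8 families, with families of 2 genes tested once. In 14 of them the 4 LPS libraries lay wholly on one side of the 4 vehicle libraries, which gives an exact permutation p of 0.0286, the smallest that 70 divisions of 8 libraries allow (0.0327 after Benjamini-Hochberg adjustment). The Hk2 and Pfkp shares were the exceptions. Shares of a family are parts of the same whole, so tests within it are not independent. The CPM of 60.2% of all tested genes also did not overlap between groups, and shares in other gene families were not computed. In shares of raw counts, without division by length, 14 of 16 also passed, but Pfkl did not (adjusted p = 0.0610) and Hk2 did, with a difference of −3.04 percentage points. The isoform with most of the level under LPS was picked from these same values, a choice that favours a gain. In 7 of the 8 families it gained share. The gain was largest for Pfkfb3, at 50.5 percentage points, and smallest for Aldoa, at 1.38, from 98.4% ± 0.575 to 99.8% ± 0.0889. Eno1 went from 69.5% ± 5.81 to 97.3% ± 1.26. In the hexokinases Hk3 lost share instead. Slc2a1 and Slc16a3 held the smaller mean share of their families with vehicle and the larger with LPS. Single vehicle libraries differed: Slc16a3 held 58.7% and 51.2% in replicates 1 and 3. Slc2a1 held 52.3% and 54.3% in vehicle replicates 1 and 4. In raw counts the mean vehicle share of Slc16a3 was 50.2%. The Eno1 share rests on the part of Eno1 sequence that is unique. Counted per window found in no other gene, 14 of 16 shares again passed.

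The oxidative branch of the pentose phosphate pathway was divided. G6pdx, glucose-6-phosphate dehydrogenase, the first and rate-limiting step, had 133, 114, 129 and 120 CPM with vehicle and 361, 262, 477 and 291 with LPS, with no overlap (log2 1.49, SE 0.18, adjusted p = 8.10e-05). Pgls, the lactonase of the next step, had 35.7, 29.7, 31.9 and 27.4 CPM with vehicle and 16.0, 10.3, 5.50 and 11.8 with LPS, also with no overlap. Pgls fell by 1.52 on the log2 scale (SE 0.27, adjusted p = 7.77e-04). Pgd, which releases the second NADPH, had 427, 296, 303 and 305 CPM with vehicle and 525, 417, 483 and 444 with LPS. Vehicle replicate 1 overlapped the LPS libraries, and the change was small (log2 0.49, SE 0.15, adjusted p = 0.0168). The direction of Pgd depends on the scaling: its log2 fold change was −0.19 when library totals replaced TMM, which also moved the median of all genes from −0.11 to −0.79. Of the merged exon bases, 13.6% of G6pdx overlap Ikbkg on the opposite strand and 20.6% of Pgls overlap Fam129c on the same strand.

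Of the 4 genes of the non-oxidative branch 2 were lower, 1 was higher and 1 was not called. Taldo1, transaldolase, had 233, 165, 155 and 148 CPM with vehicle and 106, 76.8, 66.3 and 83.3 with LPS, without overlap, and fell by 1.08 on the log2 scale (SE 0.19, adjusted p = 6.58e-04). Tkt, transketolase, had 329, 251, 258 and 250 CPM with vehicle and 246, 155, 116 and 171 with LPS. The highest LPS library lay just under the lowest vehicle library (log2 −0.66, SE 0.21, adjusted p = 0.0213). The Tkt call did not hold when any 1 vehicle library was left out (adjusted p 0.0534 to 0.0998) or LPS replicate 2 was (0.0609). Rpe, ribulose-phosphate epimerase, was slightly higher, at 45.3 ± 4.83 and 58.3 ± 6.62 CPM (log2 0.36, SE 0.12, adjusted p = 0.0197), with overlapping groups. With library totals Rpe was lower (log2 −0.31, adjusted p = 0.0230), and 17.9% of its merged exon bases overlap Kansl1l on the opposite strand, which was itself higher (log2 1.11). Rpia, ribose-5-phosphate isomerase, was not called (log2 −0.22, SE 0.16, adjusted p = 0.262).

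Summed per kilobase over each role, the vehicle libraries held 132 to 202 CPM per kilobase for upper glycolysis and the LPS libraries 722 to 904. The oxidative branch held 90.8 to 119 with vehicle and 152 to 231 with LPS, and the non-oxidative branch 118 to 168 and 67.9 to 105. In each of these sums the groups did not overlap, and the last was the only one of the 3 that was lower with LPS. These sums follow the most abundant genes of each role, Aldoa and Tpi1 in upper glycolysis and Taldo1 and Tkt in the non-oxidative branch.

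Genes around the pathway were read from the same fit over all genes. Of 68 listed genes 45 were tested, with 14 higher, 20 lower and 11 not called, beside 30.3% higher and 33.8% lower of all tested genes. Their median log2 fold change was −0.19. The counts of the single lists below are small and are to be read beside the same shares of all tested genes.

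Of the other hexose transporters 1 of 4 tested rose and 1 fell. Slc2a8, an intracellular transporter, fell by 2.62 on the log2 scale (adjusted p = 1.52e-06) and Slc2a9, a urate and hexose transporter, rose by 0.80 (adjusted p = 0.00243). Slc2a3, the neuronal type GLUT3, had 6.48 to 9.20 CPM with vehicle and 3.35 to 7.74 with LPS and was not called (adjusted p = 0.112). Slc16a7, another lactate and pyruvate transporter (MCT2), had 33.6, 39.6, 58.9 and 39.1 CPM with vehicle and 1.50, 1.85, 3.12 and 2.27 with LPS, the opposite direction to Slc16a1 and Slc16a3 (log2 −4.28, adjusted p = 1.09e-06). Bsg, basigin, the chaperone that brings MCT1 and MCT4 to the cell surface, rose from 176 ± 12.6 to 439 ± 39.8 CPM (log2 1.32).

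Of the other pentose phosphate and ribose genes 2 of 8 tested rose and 4 fell. Prps2, which makes phosphoribosyl pyrophosphate from ribose 5-phosphate for nucleotide synthesis, had 91.4, 118, 111 and 134 CPM with vehicle and 6.64, 10.0, 7.98 and 10.1 with LPS (log2 −3.71, adjusted p = 3.00e-07). Prps1 fell by 2.00 on the log2 scale. H6pd, which runs the oxidative steps inside the endoplasmic reticulum, fell by 1.08 (adjusted p = 8.38e-04), while cytosolic G6pdx rose. Shpk, sedoheptulokinase, which feeds sedoheptulose into the non-oxidative branch, fell from 2.91 ± 0.613 to 1.17 ± 0.536 CPM (log2 −1.31, adjusted p = 0.00639). Dera, deoxyribose-phosphate aldolase, rose by 1.87 and Tigar, a fructose bisphosphatase, by 0.54.

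Glycogen genes were divided, with 4 of 11 tested higher and 5 lower. Gys1, glycogen synthase of non-liver tissues, had 17.8, 18.2, 15.7 and 15.6 CPM with vehicle and 260, 169, 228 and 152 with LPS (log2 3.59, adjusted p = 4.86e-07). Pgm1, phosphoglucomutase, which joins glucose 6-phosphate to glycogen, rose by 3.04, Gbe1, the branching enzyme, by 1.74 and Ugp2, which makes UDP-glucose, by 1.06. Gyg, the glycogenin primer, fell by 1.52, and Pygb, a glycogen phosphorylase, by 0.85. Of the glycerol phosphate shuttle, cytosolic Gpd1l fell by 3.13 (adjusted p = 9.70e-08) and mitochondrial Gpd2 rose by 1.94.

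Genes of gluconeogenesis and the remaining isozymes were mostly undetected or lower. Pck1 and G6pc, the liver enzymes of gluconeogenesis, had 0 counts in every library, and Pck2 and G6pc3 fell by 1.30 and 1.42 on the log2 scale. Slc37a4, the glucose 6-phosphate transporter of the endoplasmic reticulum, rose by 0.78. Of the 13 genes listed as remaining isozymes of glycolysis 4 passed the filter and none was higher. Adpgk fell by 1.24 and Pgam2 by 1.04, and Pfkfb1 was not called. Galm, galactose mutarotase, which is no isozyme of a glycolytic enzyme, fell by 2.62.

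Among regulators of the pathway 4 of 9 tested were higher and 3 lower. Hif1a, the oxygen-regulated subunit of HIF-1, had 265, 145, 160 and 139 CPM with vehicle and 1613, 1016, 1097 and 1034 with LPS, without overlap (log2 2.75, SE 0.26, adjusted p = 1.34e-05). Myc, which also drives glycolytic genes, fell from 17.0 to 7.90 CPM (log2 −1.11, adjusted p = 0.0141). Mlxipl, the glucose-responsive factor ChREBP, fell from 60 to 78 counts per vehicle library to 0 to 2 in the LPS libraries, and its partner Mlx rose by 1.46. Txnip, an inhibitor of glucose uptake, was at 362 and 318 CPM and not called (adjusted p = 0.337).

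**Figure D5:**
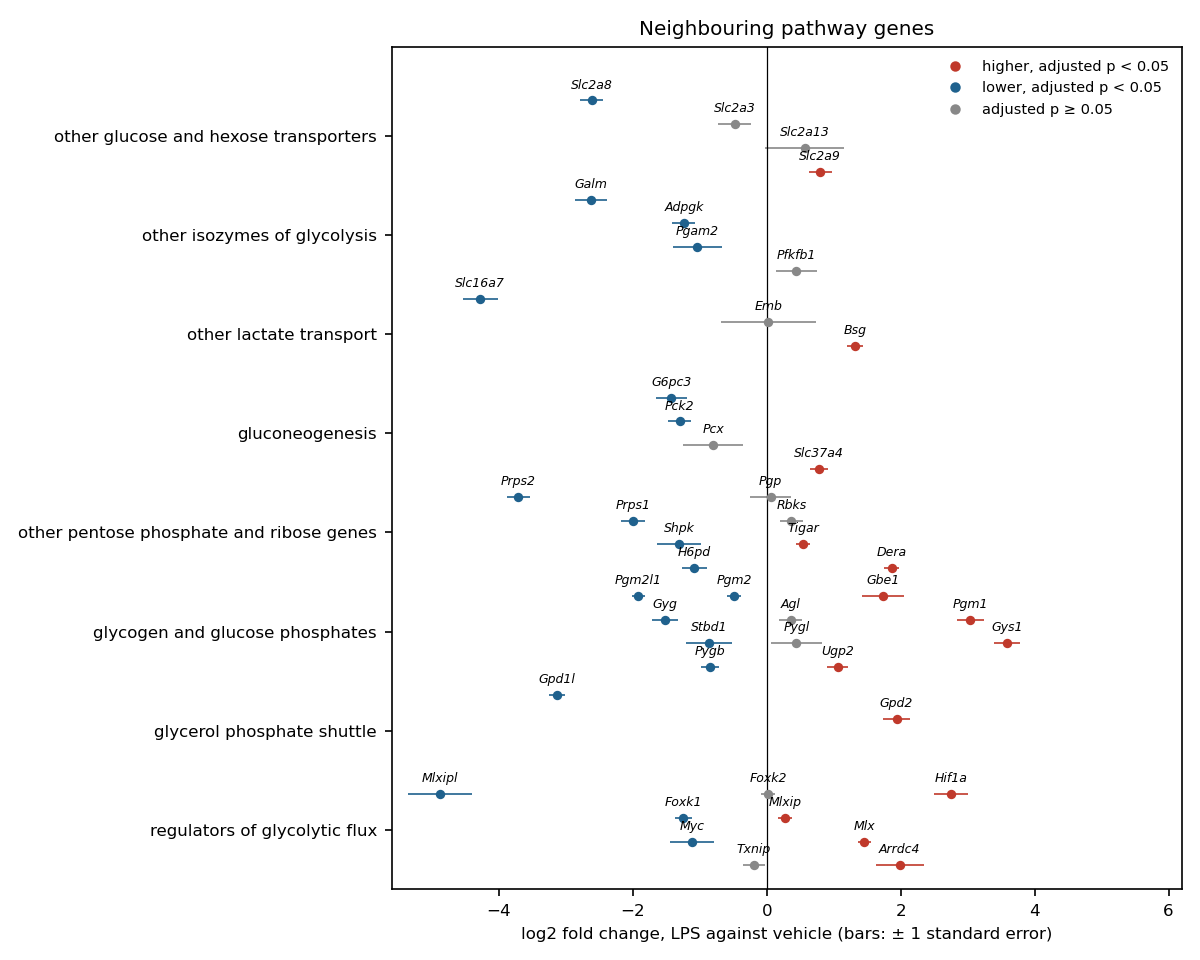
Log2 fold change, LPS against vehicle (x axis), of the 45 tested genes around the pathway, by list. Points are edgeR estimates from 4 libraries per group, bars are 1 standard error and colour gives the call. Slc16a7, Prps2, Gpd1l and Mlxipl lie to the left of −3, and Gys1 and Pgm1 to the right of 3. The Mlxipl estimate rests on 0 to 2 counts per LPS library and is no bound.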

How the data were processed

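RNA of 4 vehicle and 4 LPS libraries was sequenced. The authors deposited raw counts per Ensembl gene of uniquely aligned reads, made with GSNAP and HTSeqGenie on GRCm38 and not normalized. The annotation release and the use of strand in counting are not given in the sources used here, and the labels and the methods name different library kits and sequencers. Reads of overlapping genes could not be assigned by strand here. Each of the 8 count columns belonged to 1 sample. Libraries held 20071921 to 30604447 counts, and low counts limit Gapdh, Fbp1, Pgam1 and Ldhb.

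Symbols and positions came from GENCODE vM21, which named 52489 of 52636 identifiers. Of the 2 identifiers named Aldoa, the one with the larger overlap with the RefSeq gene was taken. Counts were tested with edgeR 4.0.16 in R 4.3.3 (TMM scaling, the filterByExpr filter at 10 counts per library and 15 in total, two-sided quasi-likelihood test) without a replicate block, and called at a Benjamini-Hochberg adjusted p under 0.05 over the 13847 tested genes. The fit was tested on simulated data. A gene with no more than 3 counts per library in a group was taken to be at the floor there. Levels between genes were compared as CPM per kilobase of merged exons, and isozyme shares by two-sided exact permutation over 70 divisions of the libraries. Promoter sequences were from RefSeq, matched by symbol for all 35 genes. Alternatives were DESeq2 1.42.0, other scalings, filters and shares, a replicate block and each library left out. Tables and figures were made in Python 3.11.15.

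Libraries of the same number deviated together from their group means (r = 0.373, 0.196, 0.171 and 0.108 for replicates 1 to 4, over 8010 genes). The numbers, which come from the labels, were therefore used as pairs in the blocked alternative, while the main fit used no block. Vehicle 2 with LPS 4 and vehicle 4 with LPS 2 gave 0.146 and 0.137, both above the 0.108 of replicate 4, so the pairing is uncertain. The blocked value is printed where it changes the call of a member. Calls of other pathway genes also changed, such as that of Pcx (adjusted p = 0.0110 with the block and 0.140 without).

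All 35 members are named with their values. Of the other pathway genes those with an adjusted p under 0.05 could be named, and Slc2a3, Shpk, Hif1a, Myc and Txnip at any value. Pfkfb1 and Pcx were named in addition, after their values were seen. The members and lists were chosen with earlier results of these data known.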

Additional observations from a re-analysis of the deposited data

Results flagged for a closer look

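In 14 of 156 groups of 4 libraries 1 library stood far from the other 3 (Dixon's test at the 95% level), where chance gives about 1 in 20. Among the members, vehicle replicate 1 was high for Pfkl (67.0 CPM, others 38.8 to 42.2), Ldhb (6.97, others 4.50 to 4.79), Pgd (427, others 296 to 305) and Tkt (329, others 250 to 258). Hk3 was at 256 CPM in vehicle replicate 2 and 235 to 237 in the others, and Aldoc at 4.91 CPM in LPS replicate 1 and 1.62 to 2.01 in the others.

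Among the other pathway genes, Hif1a was high in replicate 1 of both groups, at 265 CPM with vehicle (others 139 to 160) and 1613 with LPS (others 1016 to 1097). H6pd was at 60.3 CPM in LPS replicate 1 (others 36.7 to 39.6) and Gbe1 at 24.9 in vehicle replicate 1 (others 14.6 to 15.6). Vehicle replicate 3 was high for Rbks (7.39 CPM, others 5.29 to 5.53) and low for G6pc3 (15.3, others 19.6 to 20.1) and Mlxipl (1.90, others 2.66 to 2.73). Galm was low in vehicle replicate 2 (16.9 CPM, others 19.1 to 19.3).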

How the results depend on the processing

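Library totals in place of TMM, an alternative added after the data were seen, gave 1988 genes higher and 8457 lower, so that 19.0% of calls were higher against 47.2%, and 13 members lower. Under it Slc2a6 (log2 −0.015), Pgd (−0.19) and Rpe (−0.31) turned direction. A minimum change of 1 on the log2 scale left 2224 genes higher and 2998 lower. The Pfkp share turned to a difference of −1.93 percentage points in raw counts and −2.14 without LPS replicate 3, and ranged up to 4.28 with another library left out. Leaving out 1 library gave 3952 to 4393 genes higher and 4003 to 5015 lower, 20 to 21 members higher and 7 to 9 lower, and 13 to 15 other pathway genes higher and 17 to 22 lower. Upper quartile scaling lost the calls of Pgd (adjusted p = 0.0724) and Rpe (0.119), and dropping the filter lost Rpe (0.0593). DESeq2 called 22 members higher and 8 lower. The added calls were Fbp1 and Gapdh, which had not passed the edgeR filter and had 0 to 2 counts per vehicle library. The calls of the 33 members tested in edgeR stayed the same. With the replicate block 20 members were higher and 9 lower. Aldoc (log2 −0.96) was gained and the block changed no other member call. Isozyme shares cannot pass the threshold with 1 library left out (smallest p 0.0571) or within 4 pairs (0.125). Windows unique in the genome were not run, since no genome was used, and windows unique among annotated transcripts were used instead. Pgam1, Ldhb and Gapdh are limited by their low counts.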

Other observations

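Within the lists, 2 genes outside the members were chosen after their values were seen, because replicates 1 and 3 stood apart from replicates 2 and 4 in both groups. Emb, embigin, a chaperone of MCT2, had 865, 137, 858 and 141 counts with vehicle and 508, 130, 516 and 126 with LPS, in replicates 1 to 4. Pygl, a glycogen phosphorylase, had 2243, 785, 1763 and 801 counts with vehicle and 1466, 859, 1762 and 774 with LPS. Neither was called between groups (adjusted p = 0.979 and 0.319), and with the replicate block Pygl was higher (adjusted p = 0.00844).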
